A study of Mus musculus with 6 samples.

Results

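Signals that open and close lung vessels were followed through 10 genes: the endothelin ligand Edn1 and its receptors Ednra and Ednrb, the nitric oxide synthase Nos3, the angiotensin-converting enzyme Ace, the thromboxane receptor Tbxa2r, the prostaglandin-degrading enzyme Hpgd, and the adrenomedullin receptor Calcrl with its partners Ramp2 and Ramp3. The genes were chosen by name, and all 10 were found among the 32285 features of the count tables. They were read in single cells of mouse lung that carried markers of endothelial or mural cells, which were 14218 of the 23745 cells used. The AML group held 3 libraries of lungs into which an acute myeloid leukaemia of the genotype Trp53 R172H/Δ had spread, and the Control group held 3 libraries of normal lungs. Lungs of both groups were digested with Liberase and DNaseI, and non-haematopoietic (niche) cells were sorted. In the AML libraries, sorted GFP+ leukaemia cells were mixed in at 20%, with 80% niche cells. The comparison addresses what sets the vessel cells of a lung with leukaemia apart from those of a normal one. Age, sex, strain, the promoter behind GFP and the number of animals behind a library are not given in the sources used here, nor is any batch or date.

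General capillary and venous endothelial cells of AML lungs had more Ramp3, the less abundant partner of the adrenomedullin receptor, at 2.95 and 3.70 times the Control level. These differences passed the test in 3 and 2 of the 6 fits that left out a library. In the only general capillary cluster with at least 20 cells in every library, AML and Control values overlapped. Aerocytes, the wide and thin capillary cells of the gas-exchange surface, had 6.22 times less Tbxa2r in AML lungs. Their change was lower than that in general capillary cells, where AML and Control values of Tbxa2r overlapped. Ednrb, the endothelin receptor that marks aerocytes, and Ednra, the receptor through which endothelin contracts mural cells, did not pass the test over any class, and neither did Edn1. Smooth muscle cells of AML lungs had less Calcrl, Ramp2, Hpgd and Ace, together with less of every endothelial marker listed.

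The tone of a lung vessel is set between its endothelium and the contractile cells around it. Endothelin made by endothelium constricts through receptor A on smooth muscle and pericytes, while receptor B on endothelium clears the peptide and leads to release of nitric oxide and prostacyclin. Nitric oxide from the endothelial synthase raises cyclic GMP in smooth muscle and relaxes it, and adrenomedullin relaxes through CALCRL, a receptor that needs a RAMP partner to reach the cell surface and to choose its ligand. The lung endothelium also converts angiotensin I to angiotensin II through ACE and removes prostaglandins through HPGD, and thromboxane, a constrictor released by platelets, acts through TBXA2R.

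The libraries held 39919902, 45953347 and 46018541 unique molecular identifiers (UMIs, each 1 captured transcript) in AML 1, 2 and 3, against 19060359, 26789176 and 22687245 in Control 1, 2 and 3. The cells used had median UMIs between 3723 and 4685.5 in AML libraries and between 4794.5 and 8323.5 in Control libraries, so each cell was read less deeply in AML. Cells took the class name of their cluster, mostly that of the class whose marker genes scored highest there on average. A name below means like that type by those markers. Of the markers, 6 of 6 general capillary, 8 of 8 aerocyte, 6 of 8 arterial, 8 of 8 venous, 7 of 9 pericyte and 7 of 7 smooth muscle ones were highest in their own class among these 6. These same markers gave the classes their names, so the counts are no separate check of them. General capillary cells numbered 10436, aerocytes 1621, arterial cells 438, venous cells 1090, pericytes 263 and smooth muscle cells 293. The 77 lymphatic endothelial cells were too few for a test, with 3 in Control 1. Levels are in CPM, the UMIs of a gene in a class for every 1000000 UMIs of that class in the library. Libraries of 1 group differed by more than counting error (in general capillary cells a chi-square of 6.66 to 45.1 for each degree of freedom), and pairs of libraries shared at most 24 cell barcodes. Whether the libraries of a group come from separate mice is not stated. The p-values therefore rest on the spread among these 6 libraries alone, part or all of which can be technical.

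The stretches of DNA just before the start of 3 of the genes are given, and no test rests on them. The genes are Ramp3, which was higher in AML in 3 classes, and Tbxa2r, which was lower in aerocytes. The third is Ednrb, which shared the aerocyte class with Tbxa2r and did not pass the test there. In the GENCODE annotation of mm10, Ramp3 (ENSMUSG00000041046) lies on chromosome 11 from 6658521 to 6677475, Tbxa2r (ENSMUSG00000034881) on chromosome 10 from 81328731 to 81335172, and Ednrb (ENSMUSG00000022122) on chromosome 14 from 103814625 to 103844402. Each is the 250 bases before the gene's start in RefSeq on GRCm38.p6, on the gene's strand, 5′ to 3′. GENCODE starts Ednrb further upstream, so its stretch lies inside the GENCODE span of the gene. The Ramp3 stretch is chr11:6658283-6658532 on the plus strand, that of Tbxa2r is chr10:81328453-81328702 on the plus strand, before 1 of its 2 listed starts, and that of Ednrb is chr14:103843702-103843951 on the minus strand. Capitals mark CACCC or its reverse complement GGGTG, the core that Krüppel-like factors of endothelium bind.
Ramp3: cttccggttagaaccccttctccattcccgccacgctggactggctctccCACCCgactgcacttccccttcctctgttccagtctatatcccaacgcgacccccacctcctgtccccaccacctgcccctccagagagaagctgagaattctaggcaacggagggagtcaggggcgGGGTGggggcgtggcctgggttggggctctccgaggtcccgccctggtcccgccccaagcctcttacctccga
Tbxa2r: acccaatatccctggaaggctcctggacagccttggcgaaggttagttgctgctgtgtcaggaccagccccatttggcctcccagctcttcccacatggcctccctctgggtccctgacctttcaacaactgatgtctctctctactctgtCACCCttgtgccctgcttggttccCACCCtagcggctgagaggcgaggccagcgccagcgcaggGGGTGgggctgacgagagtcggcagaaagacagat
Ednrb: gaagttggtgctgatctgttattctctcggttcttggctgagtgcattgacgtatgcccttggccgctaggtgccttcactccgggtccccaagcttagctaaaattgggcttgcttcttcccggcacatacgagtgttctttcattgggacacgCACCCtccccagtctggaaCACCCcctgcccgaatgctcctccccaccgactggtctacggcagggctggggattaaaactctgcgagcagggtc
The Ramp3 stretch held 2 such matches, that of Tbxa2r 3 and that of Ednrb 2, and 52% of 32851 promoter stretches of the table, each 250 bases long, held at least 1. GATAA or TTATC was found in none of the 3, against 22.6% of the stretches in the table, and ACGTG or CACGT in none, against 16.6%. TGANTCA, which is its own reverse complement, was in none either, against 6.75%. A match is a string of letters and not a shown site. A promoter was listed for 8 of the 10 genes.

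Each gene had its own order of levels over the 6 classes. These orders describe clusters and were not tested. Edn1 averaged 671 ± 364 CPM in arterial cells (SD over the 6 libraries), 422 ± 190.0 CPM in general capillary cells and 233 ± 86.2 CPM in venous cells, with overlap between each pair of neighbours, and 19.0 ± 14.2 CPM in aerocytes. Receptor A, Ednra, was among these 6 classes highest in the mural ones, at 159 ± 42.0 CPM in pericytes and 132 ± 37.8 CPM in smooth muscle cells, with overlap, and averaged no more than 0.44 CPM in any of the 4 endothelial classes. Outside the vessel classes it averaged more, at 316 CPM in duct myofibroblasts and 281 CPM in alveolar fibroblasts. Receptor B, Ednrb, stood at 1700 ± 205 CPM in aerocytes, and its next highest class, pericytes, reached 115 ± 39.5 CPM, with no overlap between them. So the ligand was lowest among endothelial cells in the class where this receptor was highest.

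Nos3 was highest in arterial cells, at 110 ± 11.5 CPM, and in venous cells, at 93.5 ± 40.0 CPM, which overlapped, and lay at 31.1 ± 10.2 CPM in general capillary cells. In aerocytes it was 4.15 ± 1.56 CPM. Ace was at 1345 ± 159 CPM in general capillary and 1325 ± 300.0 CPM in arterial cells. Among the 4 tested endothelial classes its lowest level was 756 ± 143 CPM, in venous cells, so that it was a transcript of all 4.

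Tbxa2r had 2 peaks that overlapped, 44.5 ± 39.7 CPM in aerocytes and 34.9 ± 14.9 CPM in smooth muscle cells. In the others of these 6 classes it had at most 6.84 ± 7.05 CPM. Outside them it averaged 39.2 CPM in lymphatic cells, on 12 UMIs, and 16.7 CPM in T and NK lymphocytes. Hpgd was abundant in every endothelial class, with its highest means of 6256 ± 1833 CPM in venous and 6232 ± 1374 CPM in general capillary cells, which overlapped. Calcrl was highest in general capillary cells, at 3344 ± 822 CPM, and Ramp2 in aerocytes, at 4414 ± 972 CPM. Ramp3 had another order, with 116 ± 87.4 CPM in venous and 52.4 ± 29.3 CPM in general capillary cells, which overlapped, and only 6.005 ± 4.74 CPM in arterial cells.

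**Figure D1:**
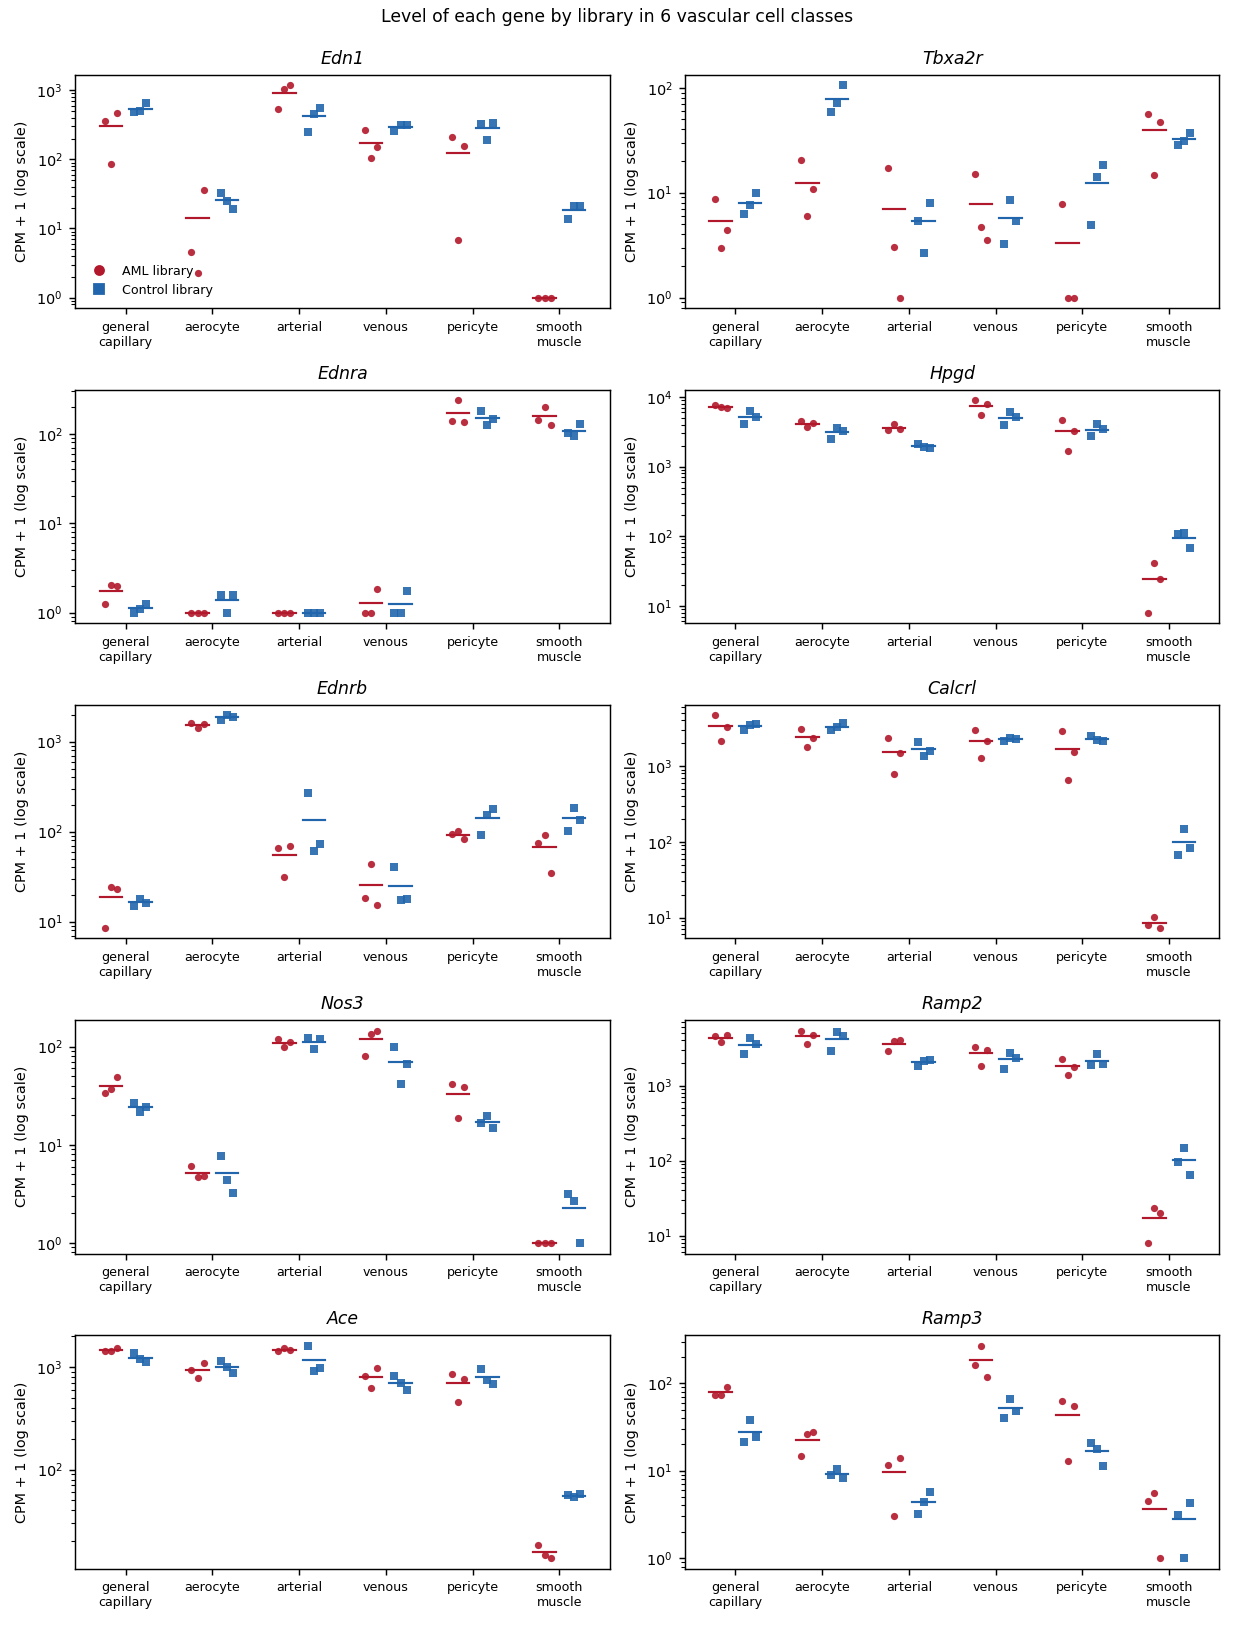
Level of each of the 10 genes in 6 classes, as CPM + 1 on a log axis; each point is 1 library (AML circles on the left, Control squares on the right) and the bar is the mean. Ednrb sat at 1422 to 1958 CPM in aerocytes, and Ramp3 was higher in all 3 AML than in all 3 Control libraries in the venous, general capillary and aerocyte classes.

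Differences between AML and Control were tested on UMIs summed per library and class with edgeR's quasi-likelihood test and Benjamini-Hochberg adjustment over all genes of the class, at an adjusted p of 0.05. In general capillary cells 2 of 9 members tested were past it, both higher in AML, beside 2.99% of 11506 genes in either direction and 1.23% higher, and the members' median log2 change was 0.29 beside -0.00 over all genes. In aerocytes it was 2 of 8 members, 1 in each direction, beside 3.41% of 8979 genes (1.2% higher and 2.21% lower), with a members' median of -0.15. In venous cells it was 1 of 8 members, higher in AML, beside 0.396% of 8831 genes in either direction and 0.136% higher, with a median of 0.28. In arterial cells it was 0 of 7, beside 0.445% of 6065 genes, although 3 members had an unadjusted p under 0.05, as had 729 of those genes. With DESeq2 it was 1 of these 7, beside 0.775% of the genes. In pericytes it was 0 of 7, also at an unadjusted p under 0.05 and with DESeq2, beside 0.345% of 4927 genes. In smooth muscle cells it was 4 of 7, all lower in AML, beside 1.08% of 5204 genes in either direction and 0.73% lower, with a median of -1.78 beside 0.01 over all genes. AML and Control values did not overlap for 5 of 9 members in general capillary cells, beside 30.3% of all genes tested, and for 4 of 8 in aerocytes, beside 23%. They did not overlap for 2 of 7 members in arterial cells, beside 18.2%, 1 of 8 in venous cells, beside 18.9%, 0 of 7 in pericytes, beside 16.1%, and 5 of 7 in smooth muscle cells, beside 16.6%.

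**Figure D2:**
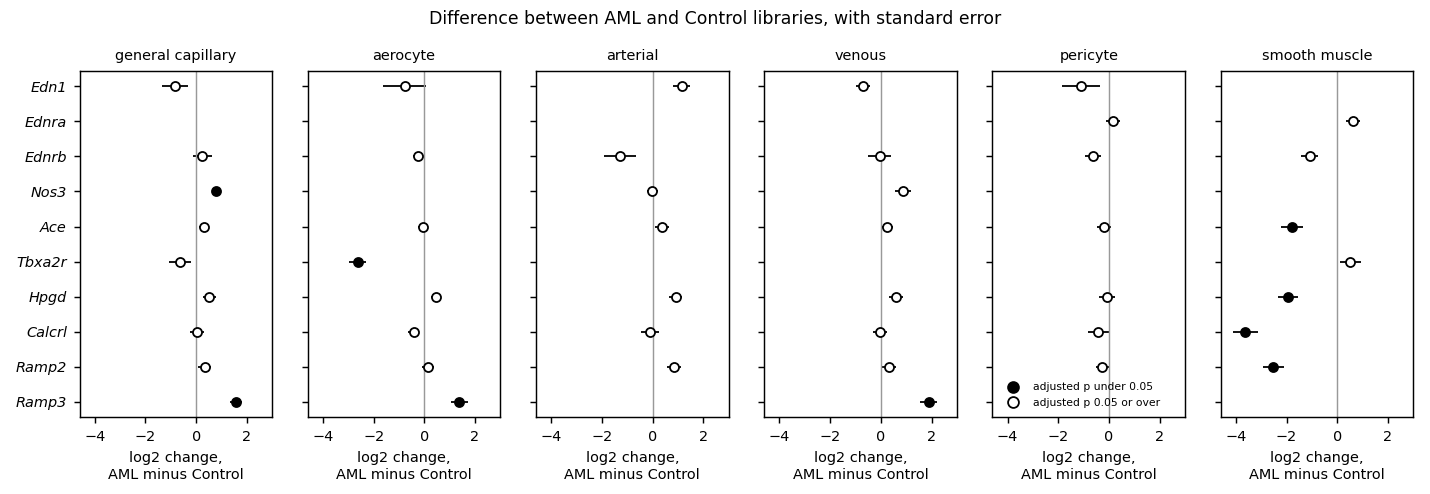
Log2 change of each gene, AML minus Control, in 6 classes, with its standard error; filled points had an edgeR adjusted p under 0.05 and genes below the low-count filter are not drawn. The filled points are Ramp3 to the right in general capillary, aerocyte and venous cells, Nos3 to the right in general capillary cells, Tbxa2r to the left in aerocytes, and 4 genes to the left in smooth muscle cells.

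Among the adrenomedullin genes, Ramp3 rose by the test in general capillary and venous cells, and on few UMIs in aerocytes. Neither Calcrl nor Ramp2 passed the test in any endothelial class. RAMP3, like RAMP2, lets CALCRL respond to adrenomedullin, and it also steers the receptor back to the surface after uptake. In venous cells Ramp3 had 159, 268 and 118 CPM in AML 1, 2 and 3, against 39.3, 64.9 and 47.6 CPM in Control 1, 2 and 3. Every AML library was above every Control library. The change was 1.89 ± 0.33 on the log2 scale (SE, 3 libraries a group), with an edgeR adjusted p of 0.0440. Without Control 1 the adjusted p was 0.296, without Control 2 0.0567, without Control 3 0.216 and without AML 3 0.0820.

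In general capillary cells Ramp3 had 73.0, 71.9 and 89.3 CPM in AML 1, 2 and 3, against 20.2, 36.9 and 23.2 CPM in Control 1, 2 and 3. The groups did not overlap. The change was 1.56 ± 0.24 on the log2 scale (edgeR adjusted p = 0.0188), and the call was lost without AML 3 (adjusted p = 0.102), Control 1 (0.102) or Control 3 (0.0714). In aerocytes Ramp3 had 13.6, 24.9 and 26.5 CPM in AML, against 7.89, 9.47 and 7.25 CPM in Control, a change of 1.38 ± 0.34 on the log2 scale (edgeR adjusted p = 0.0344). These rest on 19, 20 and 35 UMIs in AML and 14, 28 and 13 UMIs in Control, and the call was lost without AML 2 (adjusted p = 0.167), AML 3 (0.234), Control 1 (0.0518) or Control 3 (0.0681).

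The general capillary class was made of 5 clusters, and AML and Control cells lay mostly in different ones. Clusters 0, 2, 3, 4 and 5 held 20.1%, 29.0%, 39.1%, 8.51% and 3.23% of AML cells of the class, against 38.5%, 0.197%, 0.271%, 1.997% and 59.0% of Control cells. Clusters 3 and 4 had a marker of another class (Lyve1 of lymphatic cells, and Cxcl12 and Gja4 of arterial cells) among their 10 leading genes and none of their own, and cluster 5 was led by Esm1, a gene of sprouting capillaries. Cluster 2 had no general capillary marker among its 10 leading genes. Cluster 0 had the same 2 arterial markers among its 10 leading genes, as many as its own, Sema3c and Hmcn1. In cluster 0, the only one with at least 20 cells in all 6 libraries, Ramp3 had 76.6, 31.9 and 91.1 CPM in AML, against 39.4, 52.2 and 31.6 CPM in Control. There the groups overlapped, and the change of 0.80 on the log2 scale had an edgeR adjusted p of 0.164. In cluster 5 it had 37.9 and 34.8 CPM in AML 1 and 3, against 15.3, 23.2 and 18.6 CPM in Control 1, 2 and 3, and in cluster 4 it had 67.8 and 47.3 CPM in AML 1 and 3, against 17.5 and 18.2 CPM in Control 2 and 3. In those clusters AML and Control values were apart, with no test, since the other libraries had fewer than 20 cells there. Without cluster 5 the change over the class was 0.99, with an adjusted p of 0.0573, and over clusters 0, 2 and 5 alone it was 1.53, with an adjusted p of 0.00782. How much the make-up of clusters adds to the difference over the class was not tested.

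**Figure D3:**
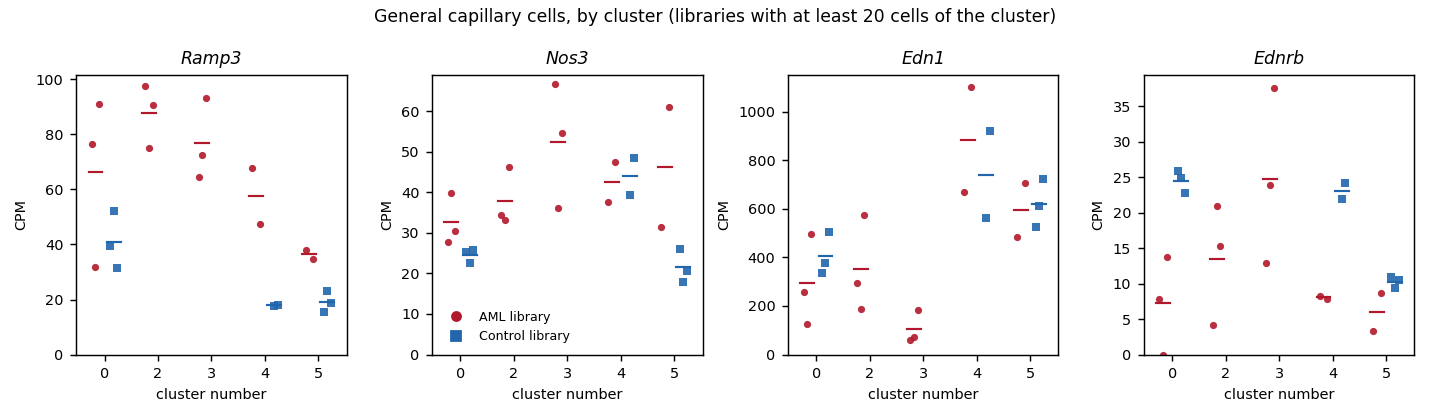
CPM of Ramp3, Nos3, Edn1 and Ednrb in the 5 clusters of the general capillary class; points are libraries with at least 20 cells of the cluster (AML left, Control right) and bars are means. In cluster 0, Ramp3 averaged 66.5 CPM in AML and 41.1 CPM in Control libraries, and Ednrb was at 7.78 and 13.8 CPM in AML 1 and 3, 0 in the 32 cells of AML 2, and between 22.8 and 25.8 CPM in Control libraries.

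Calcrl, the receptor itself, was at 4668, 2150 and 3236 CPM in general capillary cells of AML 1, 2 and 3, against 2988, 3449 and 3575 CPM in Control 1, 2 and 3. The AML libraries lay on both sides of the Controls, and the change was 0.03 on the log2 scale (edgeR adjusted p = 0.965). Ramp2 had 4616, 3761 and 4652 CPM there in AML, against 2648, 4312 and 3538 CPM in Control, with overlap (log2 change 0.34, edgeR adjusted p = 0.434). Ramp2 thus remained by far the more frequent partner in UMIs. Of the Ramp2 and Ramp3 UMIs together, Ramp3 made up 1.56%, 1.88% and 1.88% in general capillary cells of AML, against 0.757%, 0.849% and 0.651% in Control. In venous cells it made up 4.62%, 12.8% and 3.81% in AML, against 2.32%, 2.37% and 1.97% in Control. In aerocytes the groups overlapped, at 0.25%, 0.69% and 0.55% in AML, against 0.27%, 0.18% and 0.16% in Control. They overlapped in arterial cells too, at 0.37%, 0.052% and 0.32% in AML, against 0.12%, 0.16% and 0.21% in Control. UMIs come from the 3′ end of each transcript and do not scale with its length. In arterial cells Ramp2 had 2876, 3931 and 4055 CPM in AML, against 1813, 2126 and 2184 CPM in Control. The groups did not overlap, but the change of 0.85 ± 0.28 on the log2 scale had an edgeR adjusted p of 0.202.

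Of the prostanoid genes, Tbxa2r fell in aerocytes. In this class it had 19.3, 4.99 and 9.83 CPM in AML 1, 2 and 3, against 58.0, 70.01 and 105 CPM in Control 1, 2 and 3. The highest AML library was below the lowest Control library by a wide margin. The values rest on 27, 4 and 13 UMIs in AML and 103, 207 and 188 UMIs in Control. The change was -2.64 ± 0.34 on the log2 scale (edgeR adjusted p = 0.000654). It stayed past the threshold in all 13 alternatives tried, with adjusted p up to 0.0179. Aerocytes were the class with the clearest fall, and the difference from general capillary cells was itself tested. There Tbxa2r had 7.77, 1.95 and 3.401 CPM in AML, against 5.22, 6.61 and 8.82 CPM in Control, and the change in aerocytes was lower by 2.07 ± 0.30 on the log2 scale (edgeR adjusted p = 4.37e-05). Tbxa2r was the only 1 of 9 members past the threshold in that test, beside 1.5% of 11824 genes in either direction and 0.837% lower.

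The fall was also seen in the share of cells. With every cell thinned to 1500 UMIs, Tbxa2r was counted in 3.66%, 0.719% and 1.06% of aerocytes of AML 1, 2 and 3, against 7.58%, 10.0% and 13.4% of those of Control 1, 2 and 3. The thinned aerocytes numbered 246, 139 and 282 in AML, with 31, 20 and 30 left out as too shallow, and 132, 380 and 254 in Control, with 20, 51 and 36 left out. Without thinning the shares were 9.39%, 2.52% and 3.85% in AML, at median depths of 5189, 5336 and 4093.5 UMIs, and 30.9%, 26.4% and 36.6% in Control, at 10452, 7437 and 6390.5 UMIs. In B lymphocytes the thinned shares were 1.27%, 4.48% and 2.78% in AML, at unthinned median depths of 2840, 2192 and 2026 UMIs. They were 0 of 54 and 0 of 34 cells in Control 2 and 3, which allows up to 5.56% and 8.82%. These shares in B lymphocytes rest on 1, 3 and 2 cells with a UMI. In erythroid cells and progenitors the thinned shares were 0 of 595, 0 of 1108 and 1 of 1068 cells in AML, where the first 2 allow up to 0.504% and 0.271% and the third is 0.0936%. The aerocyte shares of AML 2 and 3 thus lay below those of B lymphocytes and above those of erythroid cells and progenitors, and no reading is made of how far they stand above background. Fewer cells that use the gene and less transcript per cell cannot be told apart.

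Among the 6 classes, smooth muscle cells had the other peak of Tbxa2r. Its levels there were 55.8, 13.6 and 46.5 CPM in AML, against 27.6, 29.8 and 36.3 CPM in Control. The AML libraries lay on both sides of the Controls (log2 change 0.52 ± 0.42, edgeR adjusted p = 0.694). Platelets, which carry the thromboxane receptor too, were read beside aerocytes. Their 6 markers summed to 0.756 to 5.73 CPM in aerocytes of AML and 6.76 to 25.6 CPM in those of Control, with 0 of 6 higher in AML and Gp1bb at 0. In the class of capillary cells that carried platelet transcripts, where these markers summed to 1072 to 2953 CPM in AML and 1016 to 1234 CPM in Control, Tbxa2r was at 0 CPM in all 3 AML libraries, which allows up to 21.6, 31.5 and 28.9 CPM, and at 5.35, 6.11 and 6.57 CPM in Control. The part of platelet RNA in the fall in aerocytes was not tested.

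**Figure D4:**
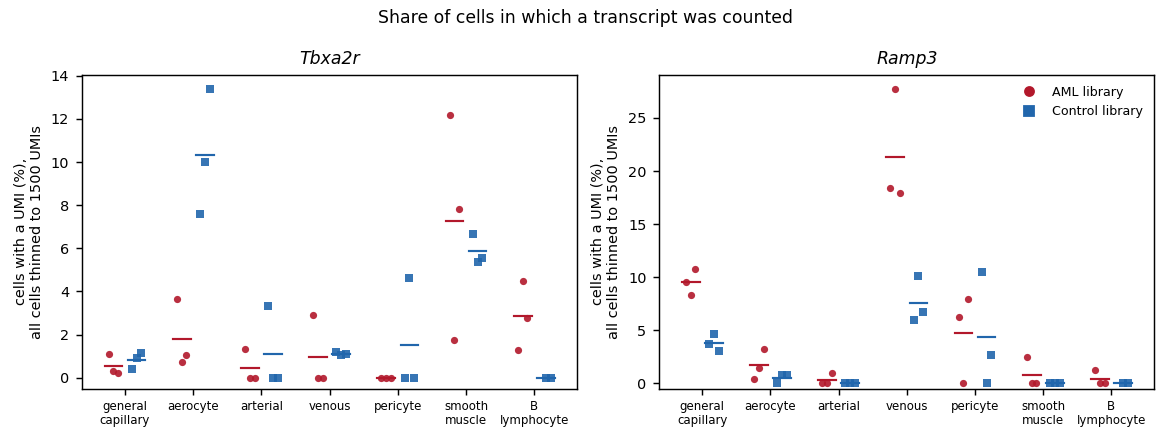
Share of cells with at least 1 UMI of Tbxa2r or Ramp3 after each cell was thinned to 1500 UMIs, by class, with B lymphocytes shown beside them. Points are libraries (AML left, Control right) and bars are means. Tbxa2r was found in 0.719 to 3.66% of aerocytes in AML libraries and 7.58 to 13.4% in Control libraries.

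The thinned share of Ramp3 was 18.4%, 27.7% and 18.0% of venous cells in AML 1, 2 and 3, against 5.95%, 10.1% and 6.67% in Control 1, 2 and 3, and 9.505%, 8.33% and 10.7% of general capillary cells in AML, against 3.68%, 4.62% and 3.03% in Control. In both classes each AML library was above each Control library. Without thinning the venous shares were 43.7%, 61.3% and 33.7% in AML, at median depths of 4379, 5699 and 3608 UMIs, against 39.1%, 31.9% and 21.9% in Control, at 13594, 7259 and 6852 UMIs. The general capillary shares without thinning were 21.2%, 20.1% and 21.3% in AML, at 3815.5, 4191 and 3070.5 UMIs, against 13.8%, 15.6% and 9.12% in Control, at 9215.5, 5266 and 4774 UMIs. B lymphocytes had it in 1.27%, 0% and 0% of thinned cells in AML, where 0 of 67 and 0 of 72 cells allow up to 4.48% and 4.17%, and in 0 of 54 and 0 of 34 cells in Control 2 and 3, which allows up to 5.56% and 8.82%. Aerocyte shares of 0.407%, 1.44% and 3.19% in AML and 0%, 0.789% and 0.787% in Control were too near that background for a reading. A higher mean of Ramp3 in AML was not limited to vessel classes. T and NK lymphocytes had 16.4, 105 and 60.0 CPM in AML 1, 2 and 3, against 0, 18.1 and 23.4 CPM in Control 1, 2 and 3, with overlap. These values rest on 5, 16 and 9 UMIs in AML and 0, 8 and 9 UMIs in Control, and the class was not tested.

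Hpgd, which inactivates prostaglandins, was higher in AML in 4 endothelial classes by its means, with no call. In arterial cells it had 3401, 4072 and 3451 CPM in AML 1, 2 and 3, against 2144, 1917 and 1852 CPM in Control 1, 2 and 3. The groups were well apart (log2 change 0.90 ± 0.27), with an edgeR adjusted p of 0.163. With DESeq2 the gene passed the threshold. In general capillary cells it had 7575, 7270 and 7010 CPM in AML, against 4042, 6331 and 5161 CPM in Control, again without overlap (log2 change 0.52 ± 0.25, edgeR adjusted p = 0.228). In aerocytes the values were 4479, 3744 and 4260 CPM in AML and 2494, 3640 and 3213 CPM in Control, likewise apart (log2 change 0.45, edgeR adjusted p = 0.301).

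No endothelin gene passed the test in any class. Edn1, the ligand, had 538, 1044 and 1185 CPM in arterial cells of AML 1, 2 and 3, against 244, 459 and 554 CPM in Control 1, 2 and 3. The groups overlapped by a small margin, between AML 1 and Control 3, and the change of 1.16 ± 0.34 on the log2 scale had an edgeR adjusted p of 0.155. In general capillary cells Edn1 had 354, 84.3 and 466 CPM in AML, against 485, 498 and 646 CPM in Control. All AML libraries were below all Controls, with AML 2 far below the other two, and the change was -0.83 ± 0.51 (edgeR adjusted p = 0.356). Edn1 differed between the clusters of this class, at 358, 503, 99.4, 708 and 608 CPM in clusters 0, 2, 3, 4 and 5 with libraries pooled. In venous cells it had 264, 105 and 150.0 CPM in AML, against 260, 309 and 312 CPM in Control, with overlap (log2 change -0.72, edgeR adjusted p = 0.310). The change in arterial cells was above that in general capillary cells by 2.27 ± 0.93 on the log2 scale, with an edgeR adjusted p of 0.520 for that difference. In that test 0 of 9 members passed the threshold, beside 1.54% of 11744 genes. At an unadjusted p under 0.05 (edgeR) it was 3 members, beside 1263 genes.

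Ednrb in aerocytes had 1613, 1422 and 1570 CPM in AML, against 1738, 1958 and 1902 CPM in Control. Every AML library was below every Control, but the change was small, at -0.25 ± 0.19 on the log2 scale (edgeR adjusted p = 0.564). After thinning, its transcript was counted in 82.1%, 78.4% and 87.9% of aerocytes in AML, against 83.3%, 87.4% and 88.2% in Control. Tbxa2r in the same cells was 6.22 times lower in AML. In arterial cells Ednrb had 64.3, 30.7 and 67.8 CPM in AML, against 270.4, 60.4 and 71.9 CPM in Control, where Control 1 with 30 cells stands far above the rest. In cluster 0 of the general capillary class it had 7.78, 0 and 13.8 CPM in AML, against 25.8, 24.9 and 22.8 CPM in Control, a log2 change of -1.62 (edgeR adjusted p = 0.0103). The 0 of AML 2 rests on 32 cells and allows up to 23.9 CPM, which is above the lowest Control. Over the whole class it was at 7.53, 23.2 and 22.0 CPM in AML and 14.0, 17.0 and 15.1 CPM in Control, with overlap (log2 change 0.24, edgeR adjusted p = 0.727).

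Ednra had 137, 236 and 135 CPM in pericytes of AML, against 179, 124 and 144 CPM in those of Control. The groups overlapped (log2 change 0.16 ± 0.29, edgeR adjusted p = 0.896). In smooth muscle cells it had 143, 199 and 125 CPM in AML, against 102, 92.6 and 129 CPM in Control, also with overlap (log2 change 0.62 ± 0.28, edgeR adjusted p = 0.409). Ednrb in smooth muscle cells had 73.2, 90.5 and 33.8 CPM in AML, against 99.7, 184 and 135 CPM in Control. The groups were apart, but the change of -1.09 ± 0.34 had an edgeR adjusted p of 0.156. Edn1 was not counted at all in smooth muscle cells of AML, where 0 UMIs allow up to 10.5, 13.6 and 6.34 CPM, and had 12.7, 19.9 and 19.8 CPM in those of Control.

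Nos3 rose in general capillary cells by the test, to 32.9, 35.7 and 48.4 CPM in AML 1, 2 and 3, against 25.7, 20.6 and 23.2 CPM in Control 1, 2 and 3. The groups did not overlap, and the change was 0.79 ± 0.19 on the log2 scale, 1.73-fold (edgeR adjusted p = 0.0497). This call was at the edge. It was lost with doublets kept (adjusted p = 0.0546) and with the member genes and further genes of their pathways let into the clustering (0.0535). Leaving out any 1 library other than AML 1 also lost it. Without the clusters made mostly of 1 library the change was 0.41, with an adjusted p of 0.501. It was also lost in the clusters named on their own (adjusted p = 0.0828) and without the Esm1-led cluster 5 (0.143). In cluster 0 alone Nos3 had 27.8, 39.8 and 30.4 CPM in AML, against 25.2, 22.5 and 25.7 CPM in Control (log2 change 0.22, edgeR adjusted p = 0.896). In venous cells it had 79.0, 132 and 145 CPM in AML, against 98.4, 40.3 and 65.8 CPM in Control, with overlap (log2 change 0.87, edgeR adjusted p = 0.301). Arterial cells, where it was highest, had 118, 98.1 and 112 CPM in AML, against 121, 93.9 and 118 CPM in Control, with a log2 change of -0.01. The difference between the arterial and the general capillary change was -0.76 ± 0.24 on the log2 scale, with an edgeR adjusted p of 0.101. Ace in general capillary cells had 1434, 1431 and 1522 CPM in AML, against 1380, 1191 and 1111 CPM in Control. The AML libraries were all above the Controls by a small step (log2 change 0.29 ± 0.19, edgeR adjusted p = 0.380).

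In smooth muscle cells 4 genes that belong mainly to endothelium were lower in AML. Calcrl had 6.97, 9.05 and 6.34 CPM in AML 1, 2 and 3, against 65.7, 146 and 82.6 CPM in Control 1, 2 and 3 (log2 change -3.63 ± 0.49, edgeR adjusted p = 0.000106). Ramp2 had 6.97, 22.6 and 19.0 CPM in AML, against 93.3, 144 and 62.7 CPM in Control (log2 change -2.52 ± 0.42, edgeR adjusted p = 0.000801). For both, all AML libraries were below all Controls. Hpgd had 6.97, 40.7 and 23.2 CPM in AML, against 106, 109 and 66.0 CPM in Control (log2 change -1.94 ± 0.40, edgeR adjusted p = 0.0104). Ace had 17.4, 13.6 and 12.7 CPM in AML, against 55.1, 52.9 and 56.1 CPM in Control (log2 change -1.78 ± 0.42, edgeR adjusted p = 0.0274). These values are small beside those of endothelium and rest on few molecules: Calcrl had 2, 2 and 3 UMIs in AML and 31, 88 and 25 UMIs in Control. The calls of Calcrl and Ramp2 held in 6 of the 6 fits that left out a library, with adjusted p up to 0.00227 and 0.0250. That of Hpgd was lost without AML 1 (adjusted p = 0.0551), Control 1 (0.0985) or Control 2 (0.0681). That of Ace held in 0 of the 6 (adjusted p 0.0551 to 0.154) and was lost with DESeq2 (0.150). With the member genes and further genes of their pathways let into the clustering, Ramp2 alone of the 4 stayed past the threshold (adjusted p = 0.0115). Calcrl then had 0.474, Hpgd 0.668 and Ace 0.0530.

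The endothelial markers Pecam1, Cdh5, Cldn5, Tie1, Egfl7 and Tek, summed to 52.3, 72.4 and 19.0 CPM in the smooth muscle cells of AML, against 225, 420.2 and 145 CPM in those of Control. The sums did not overlap, and 0 of 6 markers was higher in AML. The same 6 summed to 8927 to 13820 CPM in general capillary cells of AML and 8109 to 9379 CPM in those of Control. In B lymphocytes, which should lack all 4 genes, Calcrl was at 35.8 to 206 CPM in AML and 26.2 to 958 CPM in Control, and Ramp2 at 15.3 to 153 CPM in AML and 22.6 to 309 CPM in Control. Hpgd was at 46.0 to 397 CPM there in AML and 22.6 to 536 CPM in Control, and Ace at 5.11 to 41.2 CPM in AML and 3.77 to 195 CPM in Control. The highest Control value of each is that of Control 1, which had 8 such cells. In alveolar fibroblasts Calcrl, Ramp2 and Hpgd averaged 22.2, 36.7 and 47.5 CPM in AML, against 215, 143 and 277 CPM in Control, each apart. In duct myofibroblasts Ramp2 and Hpgd averaged 26.5 and 133 CPM in AML, against 219 and 427 CPM in Control, also apart. Ace in both classes and Calcrl in duct myofibroblasts were lower by their means, with overlap. Adventitial fibroblasts and mesothelial cells had higher means of all 4 genes in AML, with overlap. With cells scored as doublets kept, 0 members passed the threshold in smooth muscle cells, and Ace and Hpgd had log2 changes of 0.020 and 0.80. Genes induced by digestion and heat, a list of 10, also summed lower there, at 2073 to 2752 CPM in AML and 3501 to 5603 CPM in Control, with 1 of 10 higher in AML. The part of endothelial RNA and of digestion in the 4 calls was not tested.

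**Figure D5:**
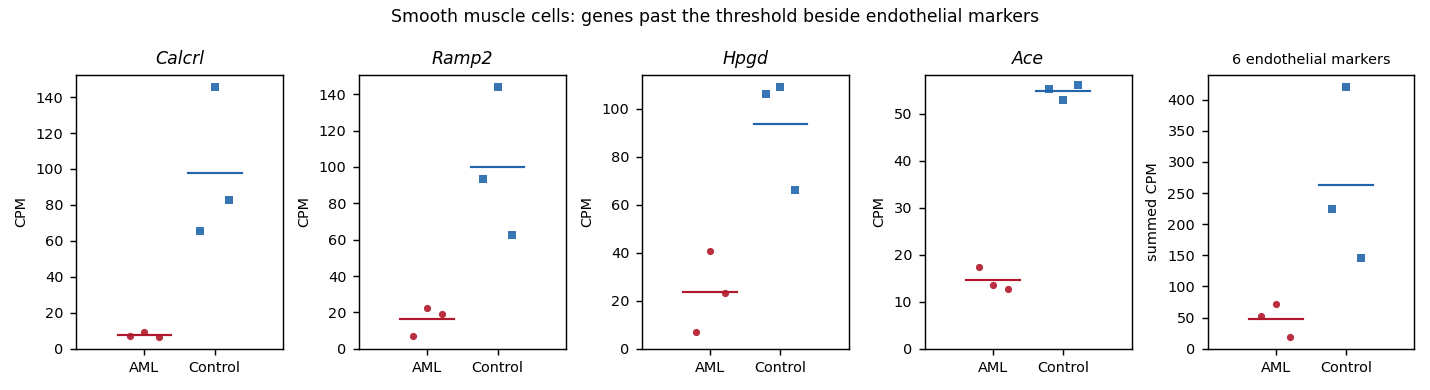
CPM of Calcrl, Ramp2, Hpgd and Ace and the summed CPM of 6 endothelial markers in smooth muscle cells; points are libraries (AML left, Control right) and bars are means. The marker sum was 19.0 to 72.4 CPM in AML and 145 to 420.2 CPM in Control libraries, apart like the 4 genes.

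Pericytes gave no call for any of the 7 members tested, and their median log2 change was -0.26 beside 0.01 over all genes. Ednrb had 92.3, 100.2 and 81.1 CPM in AML, against 89.7, 150.4 and 178 CPM in Control, with overlap (log2 change -0.64 ± 0.31, edgeR adjusted p = 0.470). The class carried endothelial transcripts in every library: the 6 endothelial markers summed to 3749 to 5591 CPM in AML and 5398 to 6236 CPM in Control, with 0 of 6 higher in AML. Its levels of Hpgd, at 3309 ± 1049 CPM over the 6 libraries, of Calcrl, at 1981 ± 789 CPM, and of Edn1, at 204 ± 121 CPM, stand beside that. The genes induced by digestion and heat were lower in general capillary cells too, at 4386 to 5103 CPM in AML and 5118 to 5614 CPM in Control, with 4 of 10 higher in AML, and their part in the changes of Ramp3 and Nos3 was not tested. Haemoglobin and other red cell genes, a list of 5, had 0 of 5 higher in AML in each of the 6 classes.

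Of 62 further genes of these pathways, few passed the test. In general capillary cells 2 of 30 tested did, beside 2.99% of 11506 genes. Both are receptors of natriuretic peptides and both were lower in AML. Npr1, the receptor that makes cyclic GMP, had 87.7, 54.3 and 54.8 CPM in AML 1, 2 and 3, against 164, 107 and 116 CPM in Control 1, 2 and 3, with no overlap (log2 change -0.94, edgeR adjusted p = 0.0474). Npr3, which clears the peptides, had 616, 391 and 447 CPM in AML, against 1000, 784 and 1063 CPM in Control, likewise apart (log2 change -0.94, edgeR adjusted p = 0.0484). Each of these calls held in 1 of the 6 fits that left out a library, with adjusted p up to 0.198. Both were also lost with doublets kept (adjusted p 0.0533 for Npr1 and 0.0538 for Npr3), without clusters mostly of 1 library (0.124 and 0.125), without cluster 5 (0.123 and 0.115) and in cluster 0 alone (0.401 each). In aerocytes 1 of 27 did, a share near that over all genes, 3.41% of 8979. It was Abcc4, an exporter of cyclic nucleotides and prostanoids, at 0.716, 3.74 and 1.51 CPM in AML against 7.32, 8.46 and 12.8 CPM in Control (log2 change -2.38, edgeR adjusted p = 0.0317). That call held in 2 of the 6 fits that left out a library. Arterial, venous, pericyte and smooth muscle cells had 0 of 21, 25, 20 and 16, beside 0.445%, 0.396%, 0.345% and 1.08% of all genes tested. At an unadjusted p under 0.05 (edgeR) they had 4, 5, 8 and 1, beside 729 of 6065, 1070 of 8831, 532 of 4927 and 558 of 5204 genes. DESeq2 gave 0, 2, 2 and 0 past the threshold, beside 0.775%, 1.48%, 0.873% and 0.903% of all genes.

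The AML change of a few pathway genes differed between large vessel cells and general capillary cells. For arterial cells it was 2 of 34 tested, beside 1.54% of 11744 genes, and for venous cells 3 of 33, beside 0.671% of 11779 genes. Ece1, the enzyme that cuts endothelin out of its precursor, had 669, 846 and 770 CPM in arterial cells of AML, against 591, 473 and 389 CPM in those of Control, and 545, 531 and 552 CPM in general capillary cells of AML, against 647, 599 and 632 CPM in those of Control. It was thus above the Controls in the one and below them in the other. The change was higher in arterial cells by 0.88 ± 0.17 on the log2 scale (edgeR adjusted p = 0.00124). That call held in 5 of the 6 fits that left out a library, with adjusted p up to 0.089. In venous cells Ptgis, the synthase of prostacyclin, had 226, 246 and 246 CPM in AML, against 143, 165 and 186 CPM in Control. The change was higher in venous than in general capillary cells by 1.13 ± 0.22 (edgeR adjusted p = 0.00935). That call held in 3 of the 6 fits that left out a library, with adjusted p up to 0.119. In the same test 0 of 9 members passed the threshold, also at an unadjusted p under 0.05, beside 0.671% of 11779 genes.

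By the likeness of their mean levels over 19 classes, the genes closest to the members were mostly endothelial transcripts. This is a description over classes that share libraries and depth. Calcrl lay closest to Cdh5, a junction protein of endothelium (Pearson r = 0.990 of log2(mean CPM + 1), among 13966 genes), Edn1 to Tek (0.928), Nos3 to Mmrn2 (0.942), and Hpgd to Tspan7 (0.981). Ace lay closest to Tmem100 (0.960), Ramp2 to Fgd5 (0.974) and Ramp3 to Klk8 (0.904). Ednra lay closest to Mamdc2 (0.962). Ednrb and Tbxa2r had lower likeness to any gene, with 0.819 for Rgs6 and 0.766 for Tsc22d2.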

How the data were processed

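Per the labels' protocols, the 3 AML and 3 Control libraries come from the 10x 3' v3.1 chemistry. The authors deposited raw UMI counts by feature and barcode, made with Cell Ranger on mm10 per the submitters' processing notes. The file headers name version 6.0.1 and the notes 7.0.0. Classes were rebuilt from markers, with no cell annotation of the study used here.

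Of 28516 barcodes, 3415 with fewer than 500 genes, 461 others with more than 15% mitochondrial UMIs and 895 likely doublets (the highest Scrublet scores, 0.8% per 1000 cells) were left out. Between 1718 and 5790 cells a library remained. The member genes and the further pathway genes were kept out of the clustering, and 1 alternative let both in. Cells were clustered by Leiden at resolution 1.0 and 0.1 (scanpy 1.11.5, igraph 0.11.9, Python 3.11.15; 2000 variable genes, 30 components, 15 neighbours). A cluster took the class whose markers had the highest mean z-score in it, with at least 3 detected. Capillary clusters without a name at the fine resolution took that of their coarse cluster, a rule set after the first clustering of these data proved unstable. Unnamed cells, 4.07 to 8.30% of AML libraries and 9.01 to 20.9% of Control libraries, entered no class. They include 1 cluster of low UMIs that scored highest as general capillary. The cluster of capillary cells with platelet transcripts took the name platelet and was left out of the endothelial classes. Only classes with 20 cells or more in all 6 libraries were tested.

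Cells are not replicates, so UMIs of a class were summed within each library. The sums of AML were set against those of Control with edgeR 4.0.16 in R 4.3.3 (robust quasi-likelihood test, filterByExpr, TMM), and p-values were adjusted by Benjamini-Hochberg over all genes of a class. Where no tool is named, an adjusted p comes from edgeR. Differences between classes are an interaction of class and group with library as a block. The procedure was tested on simulated data. DESeq2 1.42.0 was an alternative. Printed CPM are without TMM. Limits from a count of 0 use 3 counts and cover counting error only. The members and the pathway genes past the threshold are named. Of the other member results, only a part is given with values. The members, lists and tests were chosen with earlier results of these data known. Promoter coordinates are from RefSeq on GRCm38.p6 and gene coordinates from GENCODE on the same build, mm10.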

Additional observations from a re-analysis of the deposited data

Results flagged for a closer look

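The change between AML and Control differed between 2 classes by a test of that difference (edgeR, interaction of class and group) for 6 genes. Tbxa2r, the thromboxane receptor, changed by -2.07 more on the log2 scale in aerocytes than in general capillary cells (adjusted p = 4.37e-05). Against general capillary cells, the change in arterial cells was higher by 0.88 for Ece1 (adjusted p = 0.00124) and by 0.79 for Npr3 (adjusted p = 0.0168). In the same test for venous cells it was higher by 1.13 for Ptgis (adjusted p = 0.00935). There the difference was -3.33 for Adm, the adrenomedullin ligand (adjusted p = 0.0124), and -0.58 for Ackr3, a receptor that clears it (adjusted p = 0.0229). Of the 6 fits that left out a library, the call of Adm held in 5, with edgeR adjusted p up to 0.101. Those of Npr3 and Ackr3 held in 2 each, with adjusted p up to 0.297 and 0.289. Adm was at 0.832, 0 and 3.33 CPM in venous cells of AML 1, 2 and 3, against 3.03, 10.9 and 8.78 CPM in Control 1, 2 and 3, so its values rest on few molecules. Ackr3 had 511, 1109 and 564 CPM in venous cells of AML, against 480.4, 432 and 542 CPM in those of Control, and 136, 352 and 221 CPM in general capillary cells of AML, against 90.7, 91.4 and 123 CPM in those of Control.

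For 3 genes every AML library moved one way in smooth muscle cells and the opposite way in the endothelial classes named here, and these differences were not tested. Ace had a log2 change of -1.78 in smooth muscle and 0.29 in general capillary cells, with overlap in aerocytes, arterial and venous cells. Hpgd had -1.94 in smooth muscle cells, against 0.52 in general capillary cells, 0.45 in aerocytes and 0.90 in arterial cells, with overlap in venous cells. Ramp2 had -2.52 in smooth muscle and 0.85 in arterial cells, with overlap in the other 3 endothelial classes. The smooth muscle values stand beside lower endothelial markers in AML, as given above.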

How the results depend on the processing

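Of 73 results on single members, 10 were past the threshold, and 8 of these kept their direction in every alternative. The fall of Tbxa2r in aerocytes and its difference from general capillary cells passed in every alternative, and 15 results not past the threshold passed in at least 1. Over 843 alternatives of members 57 changed sign, 3 of them past the threshold on either side: Ednrb in general capillary cells at -1.62 in cluster 0 alone, and Ace at 0.020 and Hpgd at 0.80 in smooth muscle cells with doublets kept. The cause was not tested.

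With DESeq2 the genes called were 943 in general capillary, 47 in arterial, 131 in venous and 43 in pericyte cells, and 1 arterial member was called. Without the low-count filter they were 845 in general capillary, 607 in aerocyte, 196 in arterial, 316 in venous, 130 in pericyte and 125 in smooth muscle cells. The tests of aerocytes and of venous cells against general capillary cells then called 294 and 145 genes, and 2 members were called each in arterial cells, in venous cells and in the test of aerocytes. With doublets kept, 1 member was called in general capillary cells, and 0 members and 26 genes in smooth muscle cells. With the members and pathway genes let into the clustering, 1 member was called in general capillary and 1 in smooth muscle cells, with 52 genes in arterial cells and 2 in pericytes. In general capillary cells 1 member was called without clusters mostly of 1 library (136 genes) and, in alternatives chosen after seeing the data, 1 in the clusters named on their own, 1 in cluster 0 alone (86 genes) and 0 without the Esm1 cluster (92 genes).

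Leaving out 1 library gave 0 to 3 members and 0 to 1290 genes called in general capillary cells, 1 to 2 and 53 to 369 in aerocytes, 0 to 1 and 4 to 117 in arterial, 0 to 3 and 0 to 352 in venous, 0 to 1 and 2 to 253 in pericyte, and 2 to 3 and 17 to 70 in smooth muscle cells. The tests against general capillary cells gave 1 to 2 members and 82 to 363 genes for aerocytes, 0 to 2 and 76 to 289 for arterial cells, and 0 members and 18 to 147 genes for venous cells. The count of 0 genes in general capillary cells came without Control 1, where edgeR gave 2044 genes at an unadjusted p under 0.05; DESeq2 was not run there. With a replicate block 1 member was called in general capillary cells and 2 in arterial cells, with 88 genes in arterial, 71 in venous and 131 in pericyte cells. Libraries with the same number had deviations correlated at -0.131 to 0.0663, so the numbers do not pair them. Not run were the class of sprouting capillary cells, whose name no cluster took, the lymphatic class, and pericytes with doublets kept, since a library then had fewer than 20 cells. Few UMIs stand behind Ramp3 and Abcc4 in aerocytes, Adm in venous cells and the 4 genes of smooth muscle cells.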

Other observations

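The lymphatic endothelial cells, too few for a test, had Ramp2 at 1454, 1747 and 1640 CPM in AML 1, 2 and 3, against 1093, 955 and 1337 CPM in Control 1, 2 and 3. All AML libraries were above all Controls, over 13, 17 and 21 cells in AML and 3, 12 and 11 cells in Control. Ednrb was at 98.6, 671 and 108 CPM in AML, against 133, 130.2 and 0 CPM in Control, with AML 2 far above the rest.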
